A study of Sus scrofa with 30 samples.

Results

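The muscle and heart miRNAs, or myomiRs, were followed in plasma of Göttingen minipigs (GMPs) before and after total body irradiation (TBI). They were taken as every row of the deposited miRNA count table that the pig table names miR-1, miR-133, miR-206, miR-208 or miR-499, with any letter or strand ending. This rule found 8 of the 411 ssc-miRNAs, namely ssc-miR-1, ssc-miR-206, ssc-miR-133a-3p, ssc-miR-133a-5p, ssc-miR-133b, ssc-miR-208b, ssc-miR-499-5p and ssc-miR-499-3p. The prefix ssc- is left out below.

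The animals were 3 male GMPs, 4 months old, that all received 2.2 Gy of cobalt gamma TBI and did not survive it. Each gave plasma 10 times for small RNA sequencing, first at C7 (day -7) and C1 (day -1), which formed the pre-TBI group. The Early group held the plasma drawn 6 h after TBI (0d) and on 1d, 3d and 7d, the Mid group that of 10d with 14d, the Late group 17d alone and the LR group 20d alone, phases that the study had derived from a PCA on the same data. All animals were controls of a countermeasure study and so received dextrose under the skin after TBI, were anaesthetised for irradiation with isoflurane and intramuscular drugs, and took antibiotics when neutrophils were low. No unirradiated minipigs were sampled over the same days here, so the effects of TBI, of this handling and of time cannot be told apart.

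MiRNAs are short RNAs that guide Argonaute proteins to messenger RNAs and lower the output of those messengers. MiR-1, miR-133a, miR-133b and miR-206 are made in striated muscle, where miR-1 and miR-206 promote differentiation of muscle cells and miR-133 favours their proliferation; miR-206 is largely a miRNA of skeletal muscle, while miR-1 and miR-133a are also abundant in the heart. MiR-208b and miR-499 are made from introns of myosin heavy chain genes and take part in setting the slow, oxidative fibre type. In plasma these miRNAs are known as markers of damage to heart and skeletal muscle. In the pig genes of RefSeq (assembly Sscrofa11.1), MIR1 lay beside MIR133A-1, MIR206 lay beside MIR133B, MIR208B lay inside MYH7, MIR499 lay inside MYH7B and MIR133A-2 lay inside MIB1.

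From 3d to 20d the 6 libraries of minipig 3 were nearly empty (0 to 17 counts in all, none of a myomiR). They were left out, and later values come from minipigs 1 and 2 alone. The 24 libraries used held 24341 to 550316 counts with a median of 240612, which split into 6 pre-TBI libraries (24341 to 423325 counts), 10 libraries of the Early phase (172339 to 524084), 4 of the Mid phase (35762 to 103083), 2 of the Late phase (29159 and 63441) and 2 of LR (401408 and 550316). Mid and Late were therefore read from shallower libraries than the other groups. Levels are given as CPM, the share of a library's counts after TMM scaling in edgeR. The phases were tested against pre-TBI with the quasi-likelihood test of edgeR, fitted once to the 24 libraries, with Benjamini-Hochberg adjustment over all 411 miRNAs and a threshold of 0.05. The libraries of a phase come from the same few animals, so its p-values treat repeated samples of a minipig as separate samples.

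All 8 myomiRs were present at low level in all 24 libraries, with no count of 0. Together they took 0.130 to 0.559% of a library's counts, with a median of 0.256%. Over the 24 libraries the order of the median CPM was miR-133a-5p (564), miR-133b (499.02), miR-133a-3p (415), miR-208b (238), miR-499-5p (125.6), miR-499-3p (109), miR-206 (87.4) and miR-1 (63.8). Each miRNA's range of CPM overlapped that of its neighbours in this order, and CPM of different miRNAs were not calibrated against each other. MiR-1, known as one of the most abundant miRNAs of heart muscle, held 1 to 75 counts per library and ranked 402 of 411 by mean count.

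**Figure D1:**
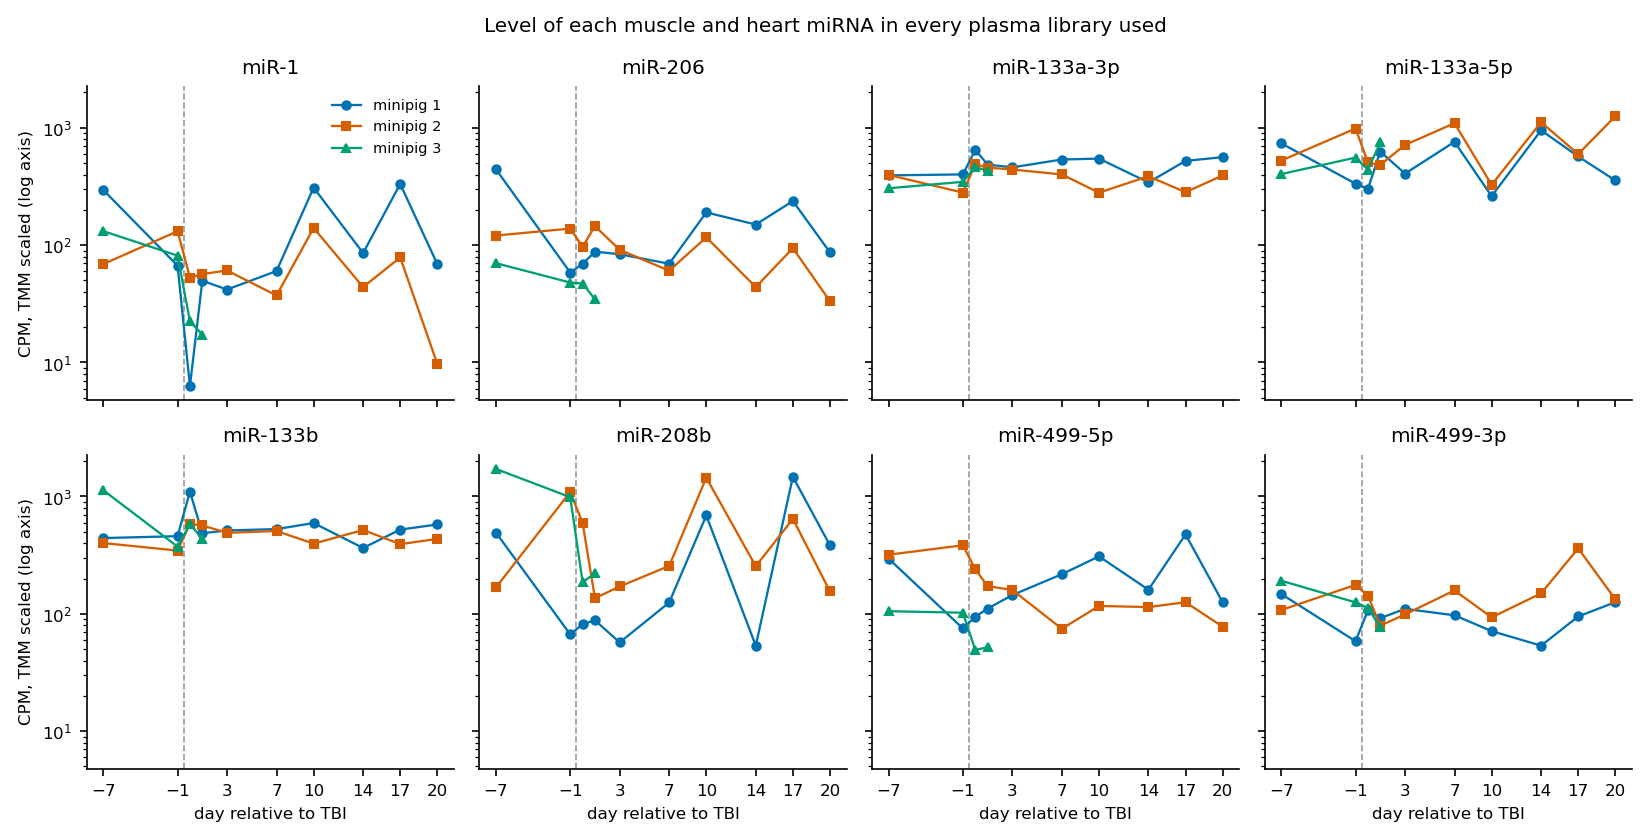
CPM (log axis) of the 8 myomiRs against the day relative to TBI, with a line for each minipig and a dashed line between C1 and 0d. MiR-133a-3p stayed within 280.0 and 648 CPM in the 24 libraries, while miR-208b ranged from 53.5 to 1716 CPM and miR-1 from 6.29 to 332 CPM.

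The myomiRs differed widely in how far they varied between libraries. MiR-133a-3p is known as the main strand of miR-133a, although miR-133a-5p had the higher median CPM here. The highest CPM of miR-133a-3p was only 2.31 times the lowest. The SD of its log2 CPM was 0.32, the rank of 14 from the lowest among 411 miRNAs, whose median SD was 0.68. MiR-133b followed with an SD of 0.41 and a rank of 54. At the other end stood miR-208b, the miRNA in the gene of slow and cardiac beta myosin, with a highest CPM 32.1 times the lowest, an SD of 1.51 and a rank of 387. MiR-1 spanned a factor of 52.9 (SD 1.18, rank 358), although its lowest value was a single count at 0d of minipig 1, or 4.74 CPM by library size with a 95% Wilson interval of 0.836 to 26.8 CPM (this covers the error of counting alone, as the reads carry no molecular identifiers). The remaining SDs were 0.55 for miR-499-3p, 0.63 for miR-133a-5p, 0.82 for miR-206 and 0.84 for miR-499-5p.

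Library depth moved with some of the myomiRs and not with others. Spearman's rho between log2 CPM and log2 library total over the 24 libraries was -0.559 for miR-1, -0.549 for miR-206 and -0.428 for miR-499-5p, against a median of 0.0504 over all 411 miRNAs, whose central 90% lay between -0.627 and 0.551. For the other 5 myomiRs rho lay between -0.114 and 0.171. A miRNA at a constant share would gain 1 unit of log2 count for each unit of log2 total. The fitted gain was 1.09 for miR-133a-3p, 0.75 for miR-208b, 0.74 for miR-499-5p, 0.60 for miR-206 and 0.39 for miR-1. The share of miR-1 and miR-206 was thus higher in the shallow libraries, which include C7 of minipig 1 and all of Mid and Late. Values with depth as a covariate are given for miR-1 at Early and LR and for miR-206 at Early. None is given for Mid and Late, or singly for miR-208b.

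**Figure D2:**
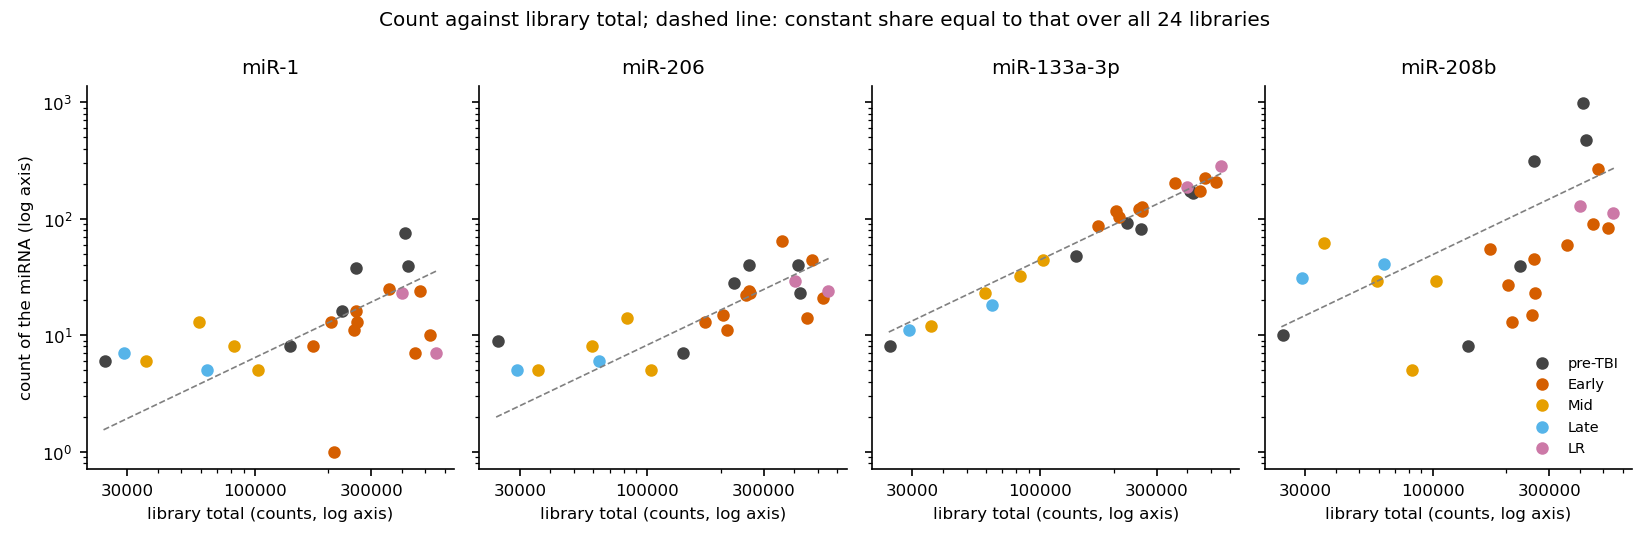
Count of miR-1, miR-206, miR-133a-3p and miR-208b against the total of the library (both axes log), with 1 point for each of 24 libraries coloured by phase and a dashed line at a constant share. MiR-133a-3p followed the line, whereas miR-1 and miR-206 held 5 to 14 counts in every Mid and Late library.

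At Early, miR-1 was lower than before TBI. The 6 pre-TBI libraries held 66.8 to 295 CPM of miR-1 with a median of 106, and the 10 Early libraries held 6.29 to 60.8 CPM with a median of 45.8. Every Early library was thus below every pre-TBI library, which was true of no other myomiR and of 0.243% of all 411 miRNAs (1 miRNA, miR-1 itself). Scaled by library size only, the groups overlapped, with 57.2 to 246 CPM before TBI and 4.74 to 70.2 CPM at Early. The log2 fold change was -1.41 ± 0.44 (SE) with an unadjusted p of 0.00419, and it missed the threshold after adjustment (edgeR, adjusted p = 0.0905).

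The same animals were also compared with themselves. The mean log2 CPM of miR-1 at Early minus that before TBI was -1.89 in minipig 1, -0.81 in minipig 2 and -2.02 in minipig 3. The mean of these was -1.58, and a two-sided exact permutation test that moved the phase labels within each minipig gave p = 0.000741, the smallest that its 1350 arrangements allow, and 0.0338 after adjustment over the 411 miRNAs. This test takes the serial draws of a minipig as exchangeable, although C7 and C1 always came first. Its p-values concern time points within these few animals. With library size only, p was 0.00296 and the adjusted p 0.0710 (exact permutation test). Without C7 of minipig 1, the shallowest library, the mean difference was -1.24 (exact permutation test, p = 0.0267), and with log2 depth as a covariate the fitted log2 fold change was -1.25 (edgeR, adjusted p = 0.0937).

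MiR-208b was lower at Early by the fitted value, with more overlap. Before TBI it stood (C7 and C1 in each animal) at 491 and 66.8 CPM in minipig 1, from 10 and 8 counts. It stood at 168 and 1093 CPM in minipig 2 and at 1716 and 987 CPM in minipig 3. The 10 Early libraries held 57.1 to 595 CPM with a median of 154. Thus 3 of the 6 pre-TBI libraries were above all Early libraries, while the lowest pre-TBI library lay among the lowest Early ones. The log2 fold change was -1.99 ± 0.59 (SE), with an unadjusted p of 0.00261 and an adjusted p of 0.0766 (edgeR). Within minipigs the difference was -1.06, -0.80 and -2.63 in minipigs 1, 2 and 3, with a mean of -1.50 (exact permutation test, p = 0.0348, adjusted p = 0.120). Leaving out 1 minipig at a time gave p of 0.0556 to 0.209 (exact permutation test), with the mean nearest to 0, -0.93, without minipig 3. Without C7 of minipig 1 it was -1.04 (p = 0.124), and without C1 of minipig 2 it was -1.06 (p = 0.156), by the same exact permutation test.

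After TMM scaling, miR-133a-3p was the one myomiR that was higher at Early in all 3 minipigs. Its 6 pre-TBI libraries held 280.2 to 401 CPM with a median of 369.7, and its 10 Early libraries held 401 to 648 CPM with a median of 461. The lowest Early library, 7d of minipig 2, lay at the level of the highest pre-TBI library, C1 of minipig 1. The difference in mean log2 CPM was 0.41 in minipig 1, 0.41 in minipig 2 and 0.44 in minipig 3, with a mean of 0.42 (exact permutation test, p = 0.000741, adjusted p = 0.0338 over the 411 miRNAs). With library size only the mean was 0.32 (exact permutation test, p = 0.00519, adjusted p = 0.0710). Minipig 3 then showed no rise, with 421 and 392 CPM at C7 and C1 and 393 and 385 CPM at 0d and 1d. The fit over all libraries gave a log2 fold change of 0.46 ± 0.18 (SE), an unadjusted p of 0.0162 and an adjusted p of 0.180 (edgeR).

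MiR-133b, whose mature sequence is known to be nearly the same as that of miR-133a-3p, had the same direction in 2 of the 3 minipigs. It differed by 0.45 in minipig 1 and 0.52 in minipig 2, but by -0.36 in minipig 3, where C7 held 644 counts and 1130 CPM against 374 CPM at C1. The fitted log2 fold change at Early was 0.12 ± 0.25 (SE, edgeR adjusted p = 0.783). Without C7 of minipig 3 it was 0.51 (edgeR, unadjusted p = 0.0176, adjusted p = 0.337), and with library size only it turned to -0.08 (adjusted p = 0.895). Reads of miR-133a-3p and miR-133b could be assigned to either row because of this likeness, so the split between these rows is uncertain.

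MiR-133a-5p, the strand opposite to miR-133a-3p in the hairpin, gave another picture than its partner. It held 334 to 986 CPM before TBI (median 542) and 302 to 1094 CPM at Early (median 567), so that the groups overlapped almost fully. Its log2 fold change was 0.05 ± 0.34 (SE, edgeR adjusted p = 0.953), and it turned to -0.05 with C1 alone as the baseline. Within minipigs the differences were -0.01, -0.12 and 0.27.

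MiR-206 and both strands of miR-499 had lower means at Early without passing the threshold. MiR-206 held 48.0 to 442 CPM before TBI (median 95.5) and 34.5 to 145.05 CPM at Early (median 76.5). Its log2 fold change was -0.46 ± 0.40 (SE, edgeR adjusted p = 0.494), and with depth as a covariate it was -0.10. It was lower in all 3 minipigs, by a mean of -0.63 (exact permutation test, p = 0.0452, adjusted p = 0.137). That mean was -0.17 without C7 of minipig 1, where 9 counts of miR-206 made 442 CPM (exact permutation test, p = 0.382).

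MiR-499-5p, the main strand of miR-499, held 75.1 to 384 CPM before TBI (median 200.1) and 49.3 to 240.2 CPM at Early (median 127.8). The log2 fold change was -0.64 ± 0.40 (SE, edgeR adjusted p = 0.362). The differences within minipigs 1, 2 and 3 were -0.15, -1.18 and -0.94, with a mean of -0.76 (exact permutation test, p = 0.0326, adjusted p = 0.116) that was -0.45 without C7 of minipig 1 (p = 0.231). MiR-499-3p had a log2 fold change of -0.34 ± 0.25 (SE, edgeR adjusted p = 0.415). It was lower in 2 of the 3 minipigs.

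In the fit over all libraries none of the 8 myomiRs passed the adjusted threshold at Early, as was true of all other miRNAs (0.0% of 411). At an unadjusted p under 0.05 there were 3 myomiRs, against 18.7% of all miRNAs. By the exact permutation test within minipigs, 2 myomiRs passed the adjusted threshold against 3.41% of all miRNAs, and 5 had an unadjusted p under 0.05 against 35.0%. The median log2 fold change of the 8 at Early was -0.40, beside 0.02 over all 411. These counts depend on the tool and on single libraries. DESeq2 called 3 myomiRs at Early (miR-1, miR-208b and miR-133a-3p), a fit of only the pre-TBI and Early libraries called 2 (miR-1 and miR-208b), and library size only called 1 (miR-208b). Leaving out 1 library at a time gave 0 to 2 calls, with miR-1 called on 6 and miR-208b on 10 of 24 occasions. The share of all miRNAs called under each of these settings is not given here. These counts therefore do not set the myomiRs apart from other miRNAs.

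**Figure D3:**
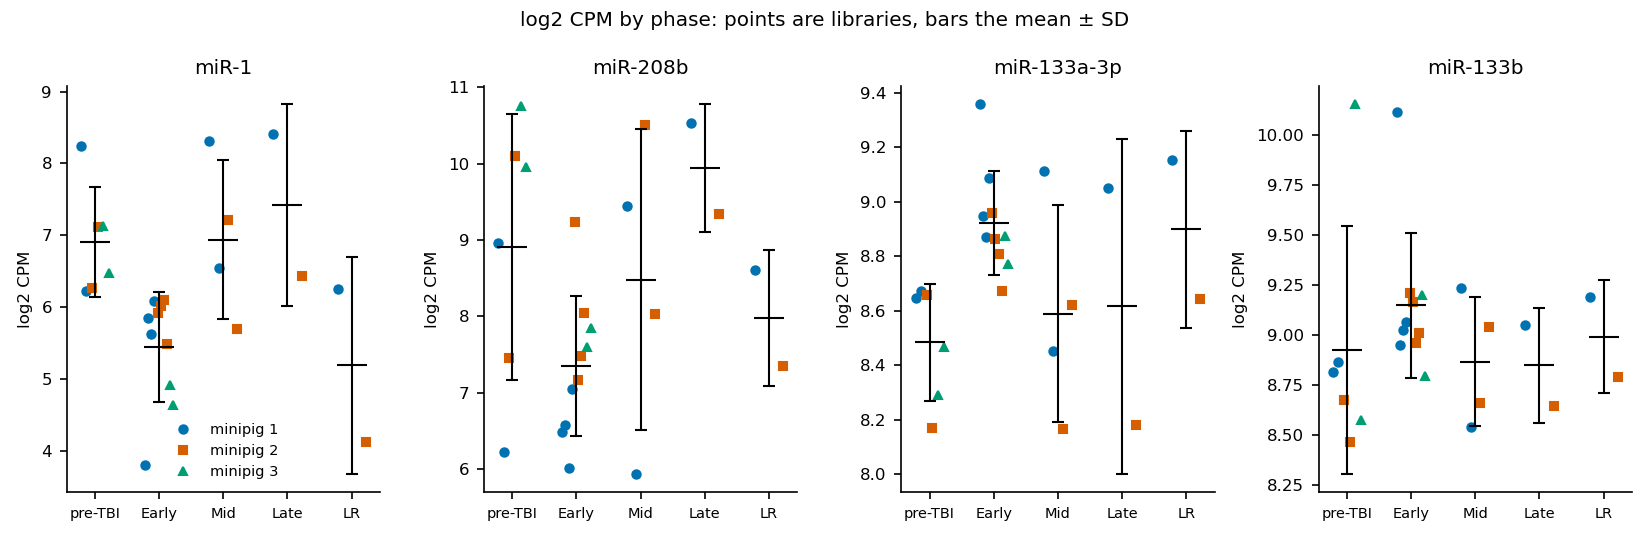
Log2 CPM of miR-1, miR-208b, miR-133a-3p and miR-133b by phase, with 1 point for each library, its shape and colour marking the minipig, and bars for the mean ± SD (n = 6, 10, 4, 2 and 2). All Early points of miR-1 lie below its pre-TBI points, and miR-133b has 1 high point before TBI (10.15, C7 of minipig 3) and 1 at Early (10.11, 0d of minipig 1).

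At Mid, miR-1 and miR-208b were higher at 10d than at 14d. In minipig 1, miR-1 stood at 309 CPM at 10d and 85.6 CPM at 14d, and in minipig 2 at 140.0 and 43.9 CPM. MiR-208b stood at 689 and 53.5 CPM in minipig 1 and at 1447 and 255 CPM in minipig 2. At 10d no value was below the pre-TBI range of its miRNA, and at 14d each miRNA was below that range in 1 of the 2 minipigs. This contrast was not tested. The 4 Mid libraries held 5 to 13 counts of miR-1 and 5 to 62 counts of miR-208b, and the 10d libraries (59291 and 35762 counts) were shallower than those of 14d (82536 and 103083 counts).

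At Mid no myomiR passed the threshold (0.0% of all miRNAs did), and none had an unadjusted p under 0.05 (5.35% of all). The median log2 fold change of the 8 was -0.03, beside 0.05 over all miRNAs. The fitted values ran from -0.51 ± 0.37 (SE) for miR-499-3p to 0.24 ± 0.61 (SE) for miR-1. MiR-133a-3p held 280.0 to 547 CPM and miR-133b 364 to 594 CPM, and miR-133b stayed within its pre-TBI range while the highest miR-133a-3p value lay above its own.

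At Late, with 1 library of each of 2 minipigs, the levels of several myomiRs were far apart between the animals. MiR-1 stood at 332 CPM in minipig 1 and 78.5 CPM in minipig 2, from 7 and 5 counts. MiR-499-5p stood at 475 and 125.6 CPM, from 10 and 8 counts. MiR-208b stood at 1472 and 644 CPM, from 31 and 41 counts. Both values lay within the pre-TBI range of all animals (66.8 to 1716 CPM), whose top came from minipig 3, without a Late library. Minipig 1 itself had held 491 and 66.8 CPM before TBI. Against its own pre-TBI mean, log2 CPM was higher by 2.94 in minipig 1 and by 0.57 in minipig 2. The fitted log2 fold change of miR-208b over all libraries was 0.43 ± 0.97 (SE, edgeR adjusted p = 0.835). No myomiR passed the adjusted threshold (edgeR), against 4.38% of all miRNAs, and 1 had an unadjusted p under 0.05, against 22.6% of all. This was miR-499-3p, with a log2 fold change of 0.92 ± 0.44 (SE, unadjusted p = 0.0472, adjusted p = 0.209). It stood at 94.98 CPM from 2 counts in minipig 1 and at 361 CPM from 23 counts in minipig 2, and its direction turned when minipig 2 was left out (-0.81).

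At LR, in libraries of 401408 and 550316 counts, miR-1 stood at 68.8 CPM in minipig 1 and 9.71 CPM in minipig 2. The value of minipig 1 lay within the pre-TBI range (66.8 to 295 CPM) and above every Early library (at most 60.8 CPM). That of minipig 2, from 7 counts, lay below the pre-TBI range. The log2 fold change of miR-1 was -1.58 ± 0.74 (SE, unadjusted p = 0.0446, edgeR adjusted p = 0.593). The value was -3.43 without the 20d library of minipig 1 and -0.92 without that of minipig 2, and -1.21 with depth as a covariate. MiR-1 was the only myomiR with an unadjusted p under 0.05 at LR, where 5.6% of all miRNAs had one and 0.0% passed after adjustment. MiR-208b stood at 383 and 155 CPM, miR-206 at 86.7 and 33.3 CPM and miR-499-5p at 125.6 and 77.6 CPM. MiR-133a-5p stood at 356 CPM in minipig 1 and at 1255 CPM, its highest value, in minipig 2. The median log2 fold change was 0.39 for the 8 myomiRs at Late and -0.48 at LR, beside 0.08 and -0.01 over all miRNAs.

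**Figure D4:**
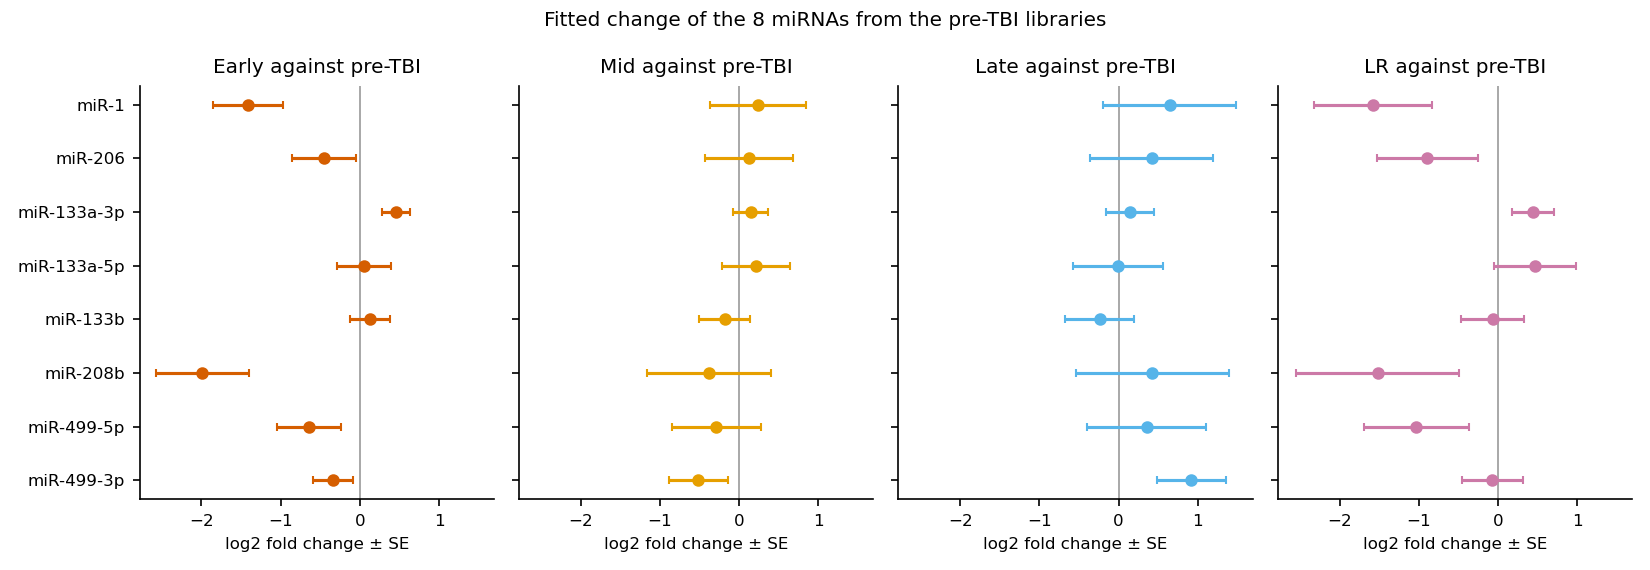
Fitted log2 fold change ± SE of each myomiR against pre-TBI (edgeR, 24 libraries) in 4 panels for Early, Mid, Late and LR. MiR-1 (-1.41) and miR-208b (-1.99) lie farthest below 0 at Early, miR-133a-3p has the narrowest error bars, and no value passed the adjusted threshold.

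Asked whether a myomiR differed from pre-TBI in any of the 4 phases, edgeR's joint test called miR-1 (adjusted p = 0.0482), against 14.1% of all miRNAs. At an unadjusted p under 0.05, 37.0% of all miRNAs passed, and miR-208b (adjusted p = 0.0743) and miR-499-3p (adjusted p = 0.129) were the other myomiRs that did. With a term for the minipig, which the design pairs, miR-208b was called too (adjusted p = 0.0493) beside miR-1 (adjusted p = 0.0347). The call of miR-1 was lost with depth as a covariate (adjusted p = 0.350), with library size only (adjusted p = 0.0531) and without any 1 of the minipigs (adjusted p of 0.0589 to 0.152).

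Single time points were set against pre-TBI in a further fit. None of the 64 pairs of myomiR and time point passed the adjusted threshold (edgeR; 0.882% of all pairs of miRNA and time point did), and 7 had an unadjusted p under 0.05, against 10.6% of all pairs. They belonged to 3 myomiRs. MiR-1 was lower at 0d (log2 fold change -1.85 ± 0.65, SE), 1d (-1.41 ± 0.63) and 20d (-1.58 ± 0.74). MiR-208b was lower at 1d (-2.36 ± 0.87), 3d (-2.75 ± 1.07) and 14d (-2.30 ± 1.06). From 3d on only minipigs 1 and 2 had libraries, while the pre-TBI group also held minipig 3, at 1716 and 987 CPM of miR-208b. In minipigs 1 and 2, miR-208b stood at 57.1 and 171 CPM at 3d and at 53.5 and 255 CPM at 14d. Their own C7 and C1 values were 491 and 66.8 CPM in minipig 1 and 168 and 1093 CPM in minipig 2. MiR-133a-3p was higher at 0d (0.60 ± 0.24).

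The pair of libraries before TBI gave the variation without irradiation. Between C7 and C1, 1 myomiR had an unadjusted p under 0.05, against 0.73% of all miRNAs. It was miR-133b, lower at C1 by a log2 fold change of -0.79 ± 0.37 (SE, edgeR adjusted p = 0.997), with the high C7 of minipig 3. MiR-208b moved in opposite directions between C7 and C1 in different animals. In minipig 1 it went from 491 to 66.8 CPM (10 counts in a library of 24341 and 8 in one of 139786). In minipig 2 it went from 168 to 1093 CPM (39 and 316 counts). A change of several fold in miR-208b was therefore seen within single animals before any TBI.

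Ratios of counts within a library need no scaling between libraries and set the myomiRs against each other. The ratio of miR-133b to miR-133a-3p had a median of 1.12 and was above 1 in 21 and equal to 1 in 2 of 24 libraries. It lay between 0.983 and 1.42 in all but 2 libraries, which were 0d of minipig 1 (1.70) and C7 of minipig 3 (3.70, from 644 and 174 counts). These 2 rows thus kept close to each other in libraries from 24341 to 550316 counts.

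The 2 strands of miR-133a did not keep a fixed ratio. MiR-133a-5p over miR-133a-3p ranged from 0.466 at 0d of minipig 1 to 3.52 at C1 of minipig 2, with a median of 1.32. In both animals followed to 20d the ratio was higher at 14d (2.78 and 2.89) than at 10d (0.478 and 1.17). MiR-499-5p over miR-499-3p ranged from 0.348 to 5.0, and it was below 1 in all 4 libraries of minipig 3 (0.550, 0.817, 0.440 and 0.677) and above 1 before TBI in minipigs 1 (2.0 and 1.29) and 2 (2.96 and 2.18). In minipig 1 it reached 4.33 at 10d (13 over 3 counts) and 5.0 at 17d (10 over 2 counts) and was 1.0 at 20d. In minipig 2 it was below 1 from 7d on (0.471 then, 0.765 for 14d, 0.348 for 17d, 0.583 for 20d), apart from 10d (1.25, from 5 over 4 counts). The value of 2.0 at C7 of minipig 1 came from 6 over 3 counts. At such low counts the course of this ratio in each animal is uncertain.

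MiR-208b over miR-133a-3p ranged from 0.124 to 5.62. Before TBI it was 1.25 and 0.167 in minipig 1, 0.424 and 3.90 in minipig 2, and 5.62 and 2.85 in minipig 3. At 0d it was 0.126, 1.22 and 0.403 in minipigs 1, 2 and 3, and at 1d it was 0.181, 0.297 and 0.517. In minipigs 1 and 2 it was 1.26 and 5.17 at 10d and then 0.156 and 0.659 at 14d. On 17d the pair of values was 2.82 and 2.28, and on 20d it was 0.681 and 0.396. The ratio was thus above 1 in both animals at 10d and 17d and below 1 in both at 14d and 20d. The libraries of minipigs 1 and 2 held 59291 and 35762 counts at 10d and 29159 and 63441 at 17d. They were deeper at 14d (82536 and 103083) and 20d (401408 and 550316). MiR-133a-3p held only 23 and 12 counts at 10d and 11 and 18 at 17d. Whether the ratio followed depth was not tested. The mean log2 ratio at Early minus that before TBI (1 count added to each) was -1.50 in minipig 1, -1.23 in minipig 2 and -3.12 in minipig 3. MiR-1 over miR-133a-3p was below 1 in every library, with a median of 0.131 and a highest value of 0.750.

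**Figure D5:**
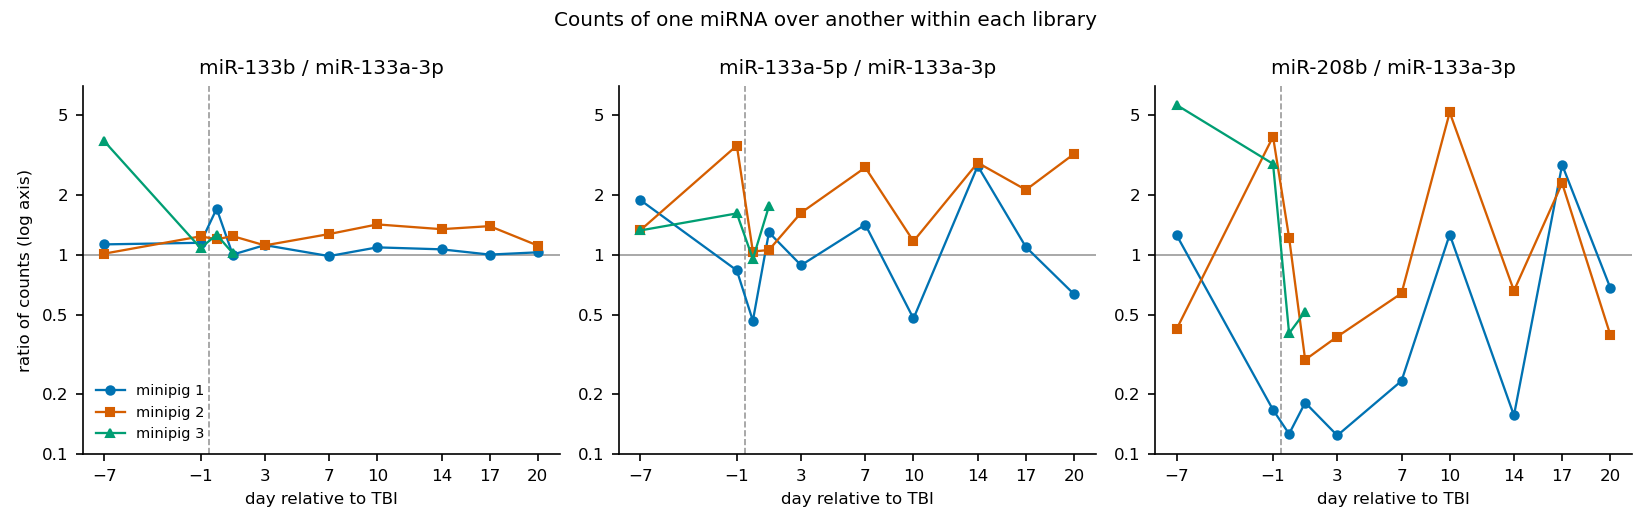
Ratio of counts (log axis) within each library against the day relative to TBI for miR-133b over miR-133a-3p, miR-133a-5p over miR-133a-3p and miR-208b over miR-133a-3p, with a line for each minipig. The first ratio stays near 1 except at C7 of minipig 3 (3.70) and 0d of minipig 1 (1.70), while the third spans 0.124 to 5.62.

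Correlations over the 24 libraries are given as a description, since the libraries share animals, depth and scaling. MiR-206 and miR-499-5p had the highest rank correlation among the myomiRs (Spearman's rho 0.850), followed by miR-1 with miR-206 (0.732), miR-133a-3p with miR-133b (0.705), miR-1 with miR-499-5p (0.633) and miR-1 with miR-208b (0.595). MiR-1 and miR-133a-3p, which comes from 2 genes of which only MIR133A-1 lies beside MIR1, had a rho of -0.303. For miR-206 and miR-133b, whose genes are neighbours, it was -0.0765. The strands of a hairpin did not follow each other, with -0.362 for miR-133a and -0.0348 for miR-499. MiR-1, miR-206 and miR-499-5p are the 3 myomiRs with the most negative rho to library depth.

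Among all 411 rows, the 3 with the highest rho to each myomiR were also listed. The nearest to miR-1 were miR-9827-5p (0.846), miR-9814-3p (0.827) and miR-130b (0.797), and the nearest to miR-206 were miR-9809-3p (0.859), miR-499-5p (0.850) and miR-105-1 (0.815). MiR-208b was nearest to miR-9852-3p (0.927), miR-9838-5p (0.909) and miR-9833-5p (0.905). MiR-133a-3p was nearest to miR-320 (0.770), miR-708-5p (0.743) and miR-671-3p (0.736), values that were 0.552, 0.552 and 0.384 with library size only. MiR-133b was the only one whose nearest row was its own family member, miR-133a-3p, and its next were miR-92a (0.547) and miR-7 (0.497), which were 0.393 and 0.203 with library size only. MiR-133a-5p was nearest to miR-4338 (0.905), miR-452 (0.839) and miR-7142-3p (0.808). MiR-499-5p followed miR-206 (0.850), miR-432-5p (0.845) and miR-497 (0.828), and miR-499-3p followed miR-98 (0.603), miR-101 (0.595) and miR-148b-3p (0.588).

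Other miRNAs with roles in muscle were read from a list of 28 rows that are known to act in muscle differentiation (miR-24, miR-26, miR-27, miR-29, miR-125, miR-128, miR-181, miR-214, miR-221, miR-222, miR-378, miR-424, miR-486 and miR-503, with all their table rows). None passed the adjusted threshold at Early, Mid or LR. At Late 2 were higher (against 4.38% of all miRNAs called), miR-181a (log2 fold change 4.56 ± 0.86, SE, edgeR adjusted p = 0.00125) and miR-181b (2.93 ± 0.55, adjusted p = 0.00125). Both rise when myoblasts differentiate but are also made in many blood and lymphoid cells. Late held 1 library of each of 2 minipigs (29159 and 63441 counts). Between these libraries the summed CPM of the 28 rows ran from 40130 to 179797. At an unadjusted p under 0.05, 3 of the 28 rows were higher and 3 lower at Early, near the background of 18.7% of all miRNAs, and 7 were higher and 3 lower at Late, where 22.6% of all miRNAs passed. At Mid 2 were higher and 1 lower (5.35% of all), and at LR 3 were higher and 1 lower (5.6% of all). The smallest p at Early belonged to miR-29c, which restrains collagen genes, with a log2 fold change of -1.36 ± 0.35 (SE, edgeR adjusted p = 0.0549). The median log2 fold change of the 28 was 0.08 in the Early phase, -0.29 in Mid, 0.02 in Late and 0.12 in LR, beside 0.02, 0.05, 0.08 and -0.01 over all miRNAs.

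Markers of other sources of plasma miRNA were given beside these values. No row of the smooth muscle list (miR-143 and miR-145, 4 rows), the erythrocyte list (miR-451, miR-144 and miR-486, 3 rows, of which miR-486 is also in the muscle list), the platelet and myeloid list (miR-126, miR-223 and miR-142, 4 rows) or the liver list (miR-122, miR-192 and miR-194, 5 rows) passed the adjusted threshold in any phase (edgeR), and none of them was at 0 in any library. Their summed CPM before TBI and at Early ran from 1492 to 2260 and from 1201 to 2642 for smooth muscle, from 8977 to 88288 and from 9235 to 57337 for erythrocytes, from 1278 to 3062 and from 2189 to 4138 for platelets and myeloid cells, and from 4324 to 5993 and from 3189 to 8751 for liver. At Late the erythrocyte sum was 8359 and 10193 CPM, below the 11315 to 24430 CPM of Mid. At Early the smallest p in each list belonged to miR-145-3p (log2 fold change -0.66 ± 0.39, SE), miR-451 (0.10 ± 0.63), miR-126-5p (0.83 ± 0.36) and miR-122 (-0.79 ± 0.30). Each list also held a row of the other direction: miR-143-3p (0.30 ± 0.28), miR-486 (-0.04 ± 0.47), miR-142-3p (-0.37 ± 0.29) and miR-192 (0.49 ± 0.31). In the same order, the median log2 fold changes of the lists were 0.10, 0.008, 0.07 and -0.21, beside 0.02 over all miRNAs. The part of these sources, and of the amount of plasma RNA in each sample, in the myomiR values was not tested, and in plasma less release of a miRNA and faster loss of it cannot be told apart.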

How the data were processed

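Plasma small RNA was converted to libraries with a TruSeq kit and read on a NextSeq. Per the study's methods, the authors used Cutadapt for trimming, Bowtie (version 2.2.3.0 in the submitters' processing notes) for alignment to the ssc5 pig genome and to miRBase, and miRDeep2 for quantification. They deposited raw counts, without normalization, of 411 ssc-miRNAs in 30 libraries. How reads shared by near-identical miRNAs were split is not given in the sources used here, and mature sequences were not used here.

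The members and gene lists were chosen with earlier results of these data known. Libraries under 1000 counts were left out (6 of 30), and 24 libraries were used. Every row passed a filter of CPM over 0.5 in 3 or more libraries. The main test was edgeR 4.0.16 (R 4.3.3) with TMM and quasi-likelihood F tests, without a term for the animal, as the study's methods name edgeR with TMM but no such term. Each SE was computed as log2 fold change divided by the root of F, without sign, and where edgeR bounds p by Poisson counting, p and SE need not match. Fold changes used a prior count of 0.125 and log2 CPM one of 2. P-values were adjusted over all 411 miRNAs, or over the 411 of a time point. The replicate number is the minipig: deviations from phase means correlated by 0.169 over 78 pairs of libraries of the same minipig and by -0.102 over 130 pairs of different minipigs, so a fit with the minipig as a block was an alternative. No 2 libraries of a phase were duplicates (smallest chi-square per degree of freedom 21.8 over 68 pairs). Permutation tests were two-sided, over log2 CPM per library. Fits were checked on simulated counts. Alternatives were RLE factors, library size only, DESeq2 1.42.0, filters on low counts, other baselines, a replicate block and each minipig left out. A depth covariate, single libraries left out and library size only in the permutation test were added after seeing the data. Planned permutation tests of ratios were not reported. Named miRNAs were the members, the 3 rows nearest to each by Spearman's rho, and in each list the smallest p at Early and every adjusted call. The study took its phases from a PCA of these libraries, and its methods mention 3 pre-TBI time points where the labels give C7 and C1. Python 3.11.15, numpy 2.4.6, pandas 2.3.3, scipy 1.17.1 and matplotlib 3.10.9 were used.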

Additional observations from a re-analysis of the deposited data

Results flagged for a closer look

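Of 42 groups of log2 levels and log2 ratios examined with Dixon's test, 4 held a library that stood apart, and chance alone flags about 1 in 20 groups. All 4 concern miR-133b. Before TBI, C7 of minipig 3 stood at a log2 CPM of 10.15 (644 counts) with the next library at 8.87, and its log2 ratio of miR-133b over miR-133a-3p was 1.88 with the next at 0.30. At Early, 0d of minipig 1 stood at a log2 CPM of 10.11 (175 counts) with the next at 9.21, and its log2 ratio was 0.76 with the next at 0.34. MiR-133a-3p of the same libraries, at 305 and 648 CPM, did not stand apart by the same test.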

How the results depend on the processing

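The number of myomiRs called at Early (0 in the reported fit) was 1 with library size only, 3 with DESeq2 and 2 with only the pre-TBI and Early libraries fitted. It ranged from 0 to 2 when 1 minipig or 1 library was left out, and was above 0 on 11 of 24 occasions when a single library was left out (C7, C1, 10d, 14d or 17d of minipig 1, or C7, 0d, 7d, 10d, 14d or 20d of minipig 2). The number called in any phase (1) was 0 with library size only, with a depth covariate, with a replicate block and depth covariate, with C7 only and with C1 only as the baseline, 2 with the replicate block, and 0 without any 1 of the minipigs. The block changed no other count of calls. Counts at Mid, Late and LR, and over single time points, stayed at 0 in every alternative run. The cause of these changes was not tested. The share of all miRNAs called in each alternative is not given here, so these counts do not set the myomiRs apart from other miRNAs.

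Over its 38 alternatives the log2 fold change of miR-1 at Early ran from -1.85 to -1.20 (adjusted p 0.0193 to 0.539), that of miR-208b from -2.83 to -1.30 (0.00804 to 0.543) and that of miR-133a-3p from 0.32 to 0.51 (0.00811 to 0.543). The values of miR-206, miR-499-5p and miR-499-3p at Early kept their direction. MiR-133a-5p at Early turned to -0.048 with C1 only as the baseline and, within minipigs, with library size only (-0.051); with parts of the libraries left out it ran from -0.16 to 0.21, and within minipigs from -0.14 to 0.23. MiR-133b at Early turned to -0.081 with library size only and to -0.39 with C7 only as the baseline; with parts of the libraries left out it ran from -0.22 to 0.52, and within minipigs from -0.064 to 0.48. MiR-499-3p at Late ran from -0.81 to 1.39. Library size only moved the median log2 fold change of all miRNAs at Late from 0.08 to -0.21, and by less than 0.1 in the other phases.

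Precision was limited by depth for miR-1 (1 to 75 counts), miR-206 (5 to 64), miR-499-3p (2 to 109) and miR-499-5p (5 to 111). MiR-208b also fell to 5 counts in its lowest library. The Late and LR groups had 1 library of each of 2 minipigs, where permutations within minipigs allow no p under 0.111.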
